A study of Mus musculus with 6 samples.

Results

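Proteins of the small subunit of the cytosolic ribosome, the 40S subunit, were described in hearts of wild-type and Pgc1b knockout mice. A gene was taken when its symbol in the platform's probe table was Rps followed by a digit (S6 kinases left out) or Rpsa, and when at least 1 probe set, a group of short probes read as 1 value, carried that symbol alone and had values. This gave 6 genes of the 494 measured, namely Rps15, Rps26, Rps29, Rps4x, Rps6 and Rpsa, read by 7 probe sets. A further 4 probe sets named a small-subunit gene together with another gene or pseudogene and are given separately. Genes were selected on the presence of values and on their symbol, not on the size of a value. They were grouped with earlier results of these data known, however, so the differences between genotypes are given as a description.

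The data come from whole hearts of 3 wild-type and 3 Pgc1b knockout mice, all on a mixed sv129 and C57BL/6 background, with 1 Affymetrix array per heart. Pgc1b, also named Ppargc1b, is a transcriptional coactivator known for its part in mitochondrial gene expression. The labels call the hearts biological replicates and give no treatment, age or sex, and describe the knockout by reference to an earlier report, so the cells in which the gene is lost are not stated in the labels used here. The targeted transcript was not analysed here, and the genotype labels were not checked against it. Food and water were freely available, and all RNA was amplified before labelling.

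The small subunit holds 18S ribosomal RNA and a set of proteins, binds the mRNA and reads its codons, while the large subunit joins the amino acids. Ribosomal protein mRNAs are abundant in most tissues and are known for a run of pyrimidines (C or T) at their 5′ end, the TOP tract, through which the mTOR pathway controls their translation. In heart muscle, ribosome number is known to rise during growth of the myocytes. An array measures the mRNA level only, and neither translation nor the number of ribosomes was measured.

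The start regions of 5 of the 6 genes and of Rps27, Rps27rt and Rps13, which share probe sets with other genes, are shown because the TOP tract is the sequence feature these mRNAs are known to share, and the choice of genes did not use it. They come from RefSeq (GRCm38.p6), with 30 bases before and 20 bases from the annotated start base on, written 5′ to 3′ on the gene's strand, and capitals mark the longest unbroken run of C or T in the window.
Rps15 (chr10:80292401-80292450, plus strand): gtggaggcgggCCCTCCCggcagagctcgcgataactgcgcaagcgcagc
Rps26 (chr10:128626487-128626536, minus strand): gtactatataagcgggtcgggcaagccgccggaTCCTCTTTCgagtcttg
Rps4x (chrX:102189372-102189421, minus strand): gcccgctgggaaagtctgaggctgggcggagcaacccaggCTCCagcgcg
Rps6 (chr4:86857348-86857397, minus strand): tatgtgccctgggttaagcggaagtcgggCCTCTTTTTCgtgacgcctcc
Rpsa (chr9:120127736-120127785, plus strand): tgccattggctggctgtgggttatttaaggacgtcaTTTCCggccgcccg
Rps27 (chr3:90213629-90213678, minus strand): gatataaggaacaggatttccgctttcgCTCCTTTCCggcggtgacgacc
Rps27rt (chr9:114982720-114982769, minus strand): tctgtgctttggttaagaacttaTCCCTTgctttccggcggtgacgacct
Rps13 (chr7:116334171-116334220, minus strand): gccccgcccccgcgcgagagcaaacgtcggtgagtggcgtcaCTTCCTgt

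The longest run was 10 bases in Rps6 and 9 in Rps26, and it was 7 in Rps15, 5 in Rpsa and 4 in Rps4x. In Rps6 the run held the annotated start base itself, as did the run of 9 in Rps27. In Rps26 it began 3 bases after that base, and in the other 3 genes it lay farther off. In Rps13 the longest run, of 6 bases, began 12 bases after the start base, and in Rps27rt a run of 6 held the start base and another of 6 lay before it. A run of at least 5 that held the start base was found in 1 of these 5 promoters, in 28.8% of 73 promoters of cytosolic ribosomal protein genes and in 10.1% of all 32851 promoters of the table. A run of at least 5 anywhere in the window of 50 bases was found in 4 of the 5, in 86.3% of the ribosomal protein promoters and in 65.5% of all promoters. These are letters around an annotated start, which need not be the base where transcription begins in heart.

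Of the 6 genes, 5 had a higher mean in knockout hearts and 1, Rpsa, a lower mean. The differences in log2 signal (knockout minus wild type) ran from -0.13 to 0.21, and their median was 0.14, beside a median of 0.01 over all 494 genes. In Rps15, Rps29 and Rps4x every knockout heart lay above every wild-type heart, which was so for 9.51% of all genes, and a higher mean was found in 52.4% of all genes. None of the 6 was called by limma, a linear model that shares the estimate of spread between genes, at an adjusted p under 0.05 over the 494 genes, where 0 genes and 0% were called in all. At an unadjusted p under 0.05 limma had 57 genes (11.5%), of which 28 (5.67%) were higher in knockout hearts, and Rps4x was the 1 small-subunit gene among those 28. Since the genes were grouped with the results known, nothing is read from these counts about the group.

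**Figure D1:**
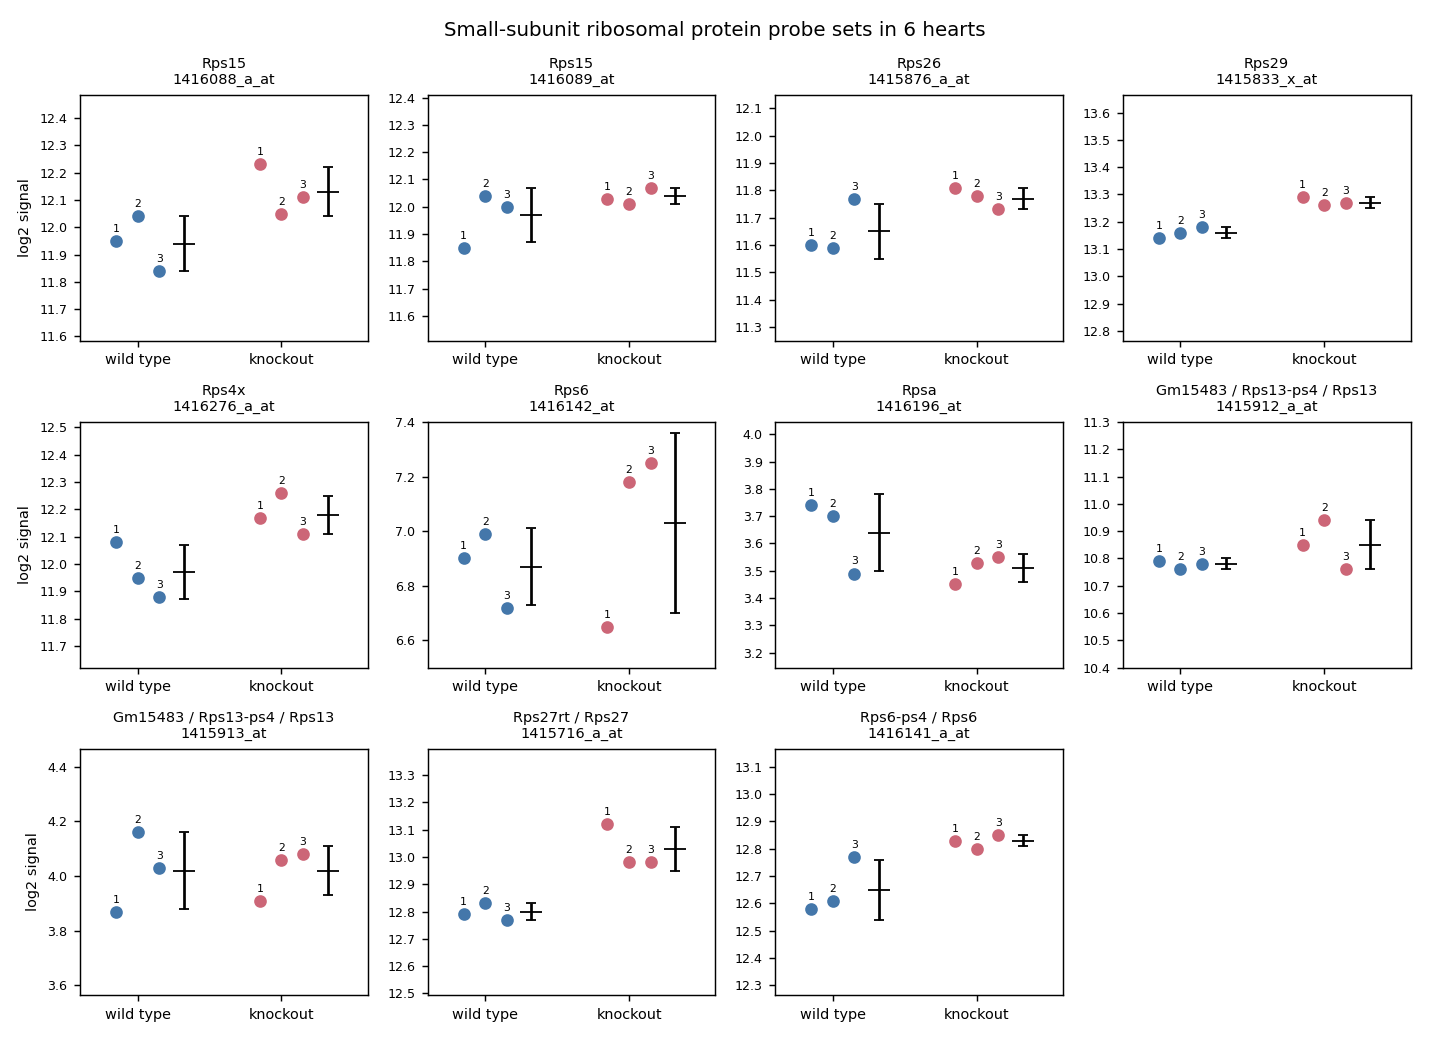
Signal on the log2 scale (vertical axis, the same span in each panel) of the 11 small-subunit probe sets in wild-type hearts (blue) and Pgc1b knockout hearts (red). Points are hearts numbered by replicate, and the black marks are the mean and SD of 3. The groups are apart in 5 panels, with the widest gap for Rps27rt / Rps27, and Rps6 (1416142_at) has the widest spread between knockout hearts.

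Rps26 and Rps15 sit along the path of the mRNA. Rps26 lies at the channel where the mRNA leaves the subunit, and its signal was 11.60, 11.59 and 11.77 in wild-type hearts 1 to 3 and 11.81, 11.78 and 11.73 in knockout hearts 1 to 3. Wild-type heart 3 lay within the knockout range, so the groups overlapped. The means were 11.65 ± 0.10 and 11.77 ± 0.04 (SD, n = 3 each), a difference of 0.12 (95% interval -0.06 to 0.30, adjusted p = 0.599 in limma). Rps15, a protein of the head of the subunit near the decoding centre, was read by a pair of probe sets. The brighter one (1416088_a_at) gave 11.95, 12.04 and 11.84 in wild-type hearts and 12.23, 12.05 and 12.11 in knockout hearts. The groups were apart, but by only 0.005 between knockout heart 2 and wild-type heart 2. The difference was 0.18 (interval -0.01 to 0.38, adjusted p = 0.439 in limma). The other one (1416089_at) gave 11.85, 12.04 and 12.00 in wild-type hearts and 12.03, 12.01 and 12.07 in knockout hearts. Here the groups overlapped and the difference was 0.07 (interval -0.11 to 0.25), so both probe sets of Rps15 had a higher knockout mean but differed in its size.

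Rps29, a small zinc-binding protein of the head, had the smallest spread between hearts. Its signal was 13.14, 13.16 and 13.18 in wild-type hearts and 13.29, 13.26 and 13.27 in knockout hearts. All 3 knockout values lay above all wild-type values, with a gap of 0.08 between the groups. The means of 13.16 ± 0.02 and 13.27 ± 0.02 (SD, n = 3 each) differed by 0.11 (interval -0.03 to 0.26, adjusted p = 0.515 in limma), a knockout level of 108% of wild type. The interval of limma is wide against these SDs because limma draws each gene's spread towards that of all genes. The type of this probe set (suffix x) holds probes that can match related transcripts as well.

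Rps4x, an X-linked protein that contacts 18S ribosomal RNA, had the largest difference of the 6 genes. Its signal was 12.08, 11.95 and 11.88 in wild-type hearts and 12.17, 12.26 and 12.11 in knockout hearts. The groups were apart by 0.03, between wild-type heart 1 and knockout heart 3. The means were 11.97 ± 0.10 and 12.18 ± 0.07 (SD, n = 3 each), and the difference of 0.21 (interval 0.02 to 0.40) had an unadjusted p of 0.0324 and an adjusted p of 0.383 in limma. Among the alternatives, the difference was smallest, 0.15, with further quantile normalization (adjusted p = 0.545 in limma). It was largest, 0.37, with the level of the hybridisation spikes as a covariate (adjusted p = 0.295 in limma). These spikes are RNAs added in fixed amount before hybridisation. Their level did not overlap between the genotypes, so this covariate and the genotype are hard to separate.

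Rps6, the substrate that gave the S6 kinases of the mTOR and insulin pathways their name, was read by a probe set of its own (1416142_at) and by one shared with the pseudogene Rps6-ps4. The first gave 6.90, 6.99 and 6.72 in wild-type hearts and 6.65, 7.18 and 7.25 in knockout hearts. Knockout heart 1 was the lowest of all 6 hearts and knockout heart 3 the highest, so the groups overlapped fully. The difference was 0.16 with a wide interval (-0.22 to 0.54, adjusted p = 0.705 in limma), and it ran from 0.05 without knockout heart 3 to 0.35 without knockout heart 1. The shared probe set (1416141_a_at) gave 12.58, 12.61 and 12.77 in wild-type hearts and 12.83, 12.80 and 12.85 in knockout hearts. In it the groups were apart by 0.03, and the difference was 0.17 (interval -0.01 to 0.36, adjusted p = 0.508 over 643 probe sets in limma). Both probe sets gave a similar difference, but the order of the knockout hearts was not the same. The one that stood for Rps6 was far dimmer, with a wild-type mean of 6.87, than the shared one. Signal of the gene and of the pseudogene cannot be told apart in the shared one.

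Rpsa, the laminin receptor protein that is built into the small subunit, was the 1 gene with a lower mean. Its signal was 3.74, 3.70 and 3.49 in wild-type hearts and 3.45, 3.53 and 3.55 in knockout hearts. Wild-type heart 3 lay within the knockout range, and the difference was -0.13 (interval -0.33 to 0.07, adjusted p = 0.618 in limma). It ran from -0.21 without wild-type heart 3 to -0.08 without wild-type heart 1. The array's control probe sets for the bacterial Trpn transcript read 3.06 ± 0.02 (wild type) and 3.00 ± 0.02 (knockout; SD, n = 3 each). The mean of the Rpsa probe set lay in the lowest 25% of the 643 gene probe sets. Detection calls were not used here, and whether the Rpsa signal lies above background was not tested. Without Rpsa the mean difference of the other 5 genes was 0.16, against 0.11 with it.

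The probe sets with several symbols added Rps27 and Rps13. The one shared by Rps27, a zinc-binding protein of the subunit, and its close copy Rps27rt (1415716_a_at) gave 12.79, 12.83 and 12.77 in wild-type hearts and 13.12, 12.98 and 12.98 in knockout hearts. All knockout values lay above all wild-type values with the widest gap of the 11 small-subunit probe sets, 0.16. The difference of 0.23 (interval 0.06 to 0.40) was the largest of the 11, with an unadjusted p of 0.0132 and an adjusted p of 0.370 over 643 probe sets in limma. Which of the genes gave the signal cannot be told apart. Rps13, a protein of the central part of the subunit, shares its probe sets with Rps13-ps4 and Gm15483. The brighter one (1415912_a_at) averaged 10.78 ± 0.02 in the wild type and 10.85 ± 0.09 in the knockout (SD, n = 3 each), with a difference of 0.07 and overlap. The other one (1415913_at) had a mean of 4.02 in both genotypes and a difference that rounds to -0.00.

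Over all 11 small-subunit probe sets, 9 had a higher mean in knockout hearts, beside 54.3% of the 643 probe sets, and in 5 the groups were apart upward, beside 9.64%. An unadjusted p under 0.05 with a higher mean was found in 2 of the 11, Rps4x and the Rps27rt and Rps27 probe set, beside 5.29%. None of the 11 and 0% of the 643 had an adjusted p under 0.05 in limma. The 2 with a lower mean, Rpsa and the dimmer Rps13 probe set, were the ones whose group means lay at 4.02 or below.

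**Figure D2:**
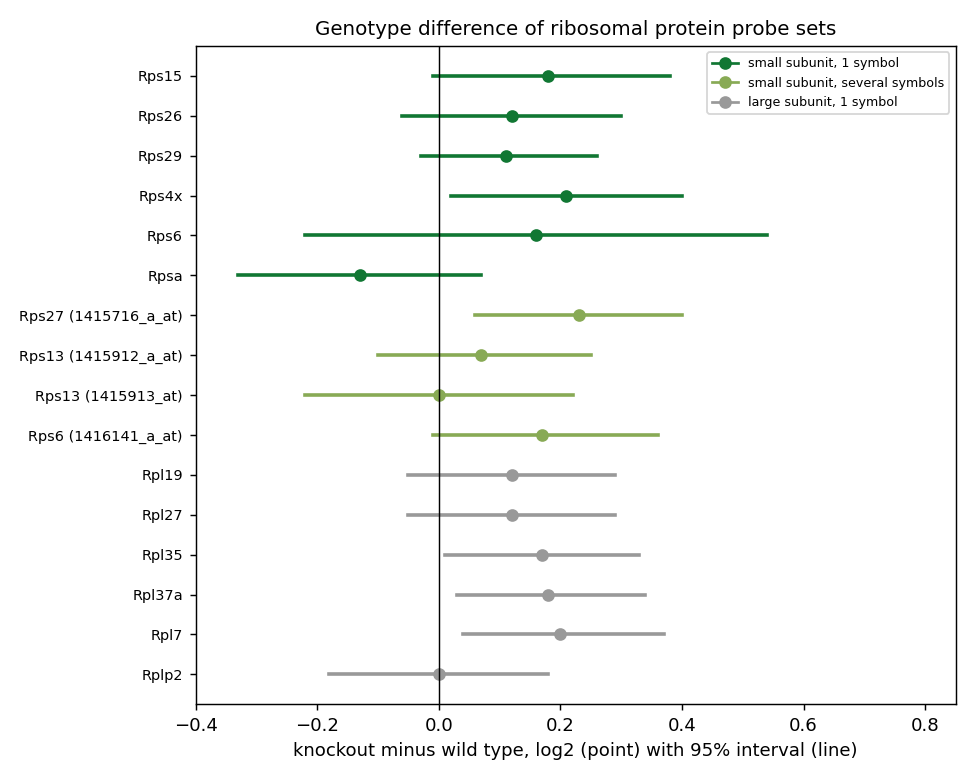
Difference between knockout and wild-type means (points, log2) with the 95% interval of limma (lines) for the 6 small-subunit genes, 4 small-subunit probe sets with several symbols and 6 large-subunit genes. The intervals of Rps4x and of the Rps27 probe set lie above 0, as do those of the large-subunit genes Rpl7, Rpl35 and Rpl37a, and the interval of the Rps6 gene is the widest.

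Averaged over the 6 genes, the signal was 9.90, 9.90 and 9.81 in wild-type hearts and 9.93, 10.01 and 10.00 in knockout hearts. Every knockout heart was above every wild-type heart, by as little as 0.03 between wild-type hearts 1 and 2 and knockout heart 1. The means of 9.87 ± 0.05 and 9.98 ± 0.04 (SD, n = 3 each) differed by 0.11, a knockout level of 108% of wild type. The 4 genes other than Rps6 and Rpsa averaged 12.19, 12.18 and 12.17 in wild-type and 12.37, 12.34 and 12.30 in knockout hearts, with SDs of 0.01 and 0.03 and a difference of 0.16. Knockout heart 1 was the highest of the 6 hearts in the mean over 4 genes and the lowest knockout heart in the mean over 6. When each array was first centred on its own median, the difference over the 6 genes was 0.07. Rps29 then differed by 0.07, Rps26 by 0.08, Rps15 by 0.14, Rps4x by 0.167, Rps6 by 0.115 and Rpsa by -0.173. Every sign was kept.

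The large subunit is the other part of the same ribosome. The 6 measured large-subunit genes averaged 11.86, 11.85 and 11.90 in wild-type and 11.98, 12.02 and 12.00 in knockout hearts, a difference of 0.13, with 5 genes higher and Rplp2, a protein of the stalk, at -0.00 after rounding. Rpl7 differed by 0.20, Rpl37a by 0.18 and Rpl35 by 0.17, and these 3 had an unadjusted p under 0.05 in limma. Over all genes, 5.67% were higher at such a p, and 52.4% had a higher mean. This list was chosen with earlier results known, so nothing is read from these counts about the large subunit. Both subunits had a median difference of 0.14 over their genes, 0 of 6 passed over all genes in limma in each, and no test of a difference between the subunits was made. The 18S ribosomal RNA of the small subunit has control probe sets of its own, whose mean was 7.17, 6.42 and 6.95 in wild-type and 6.32, 6.50 and 6.68 in knockout hearts. In this mean the groups overlapped, with a difference of -0.35 (two-sided exact permutation p = 0.3), so it lay in the direction opposite to that of the protein mRNAs. In the 18S probe set with suffix M every knockout heart lay below every wild-type heart (difference -0.35, exact permutation p = 0.1). The 3′ and 5′ ones overlapped, with differences of -0.43 and -0.25. With the 18S level as a covariate the mean difference of the 6 small-subunit genes was 0.11 and that of Rps15 was 0.115. How closely these controls follow ribosomal RNA after amplification was not tested.

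**Figure D3:**
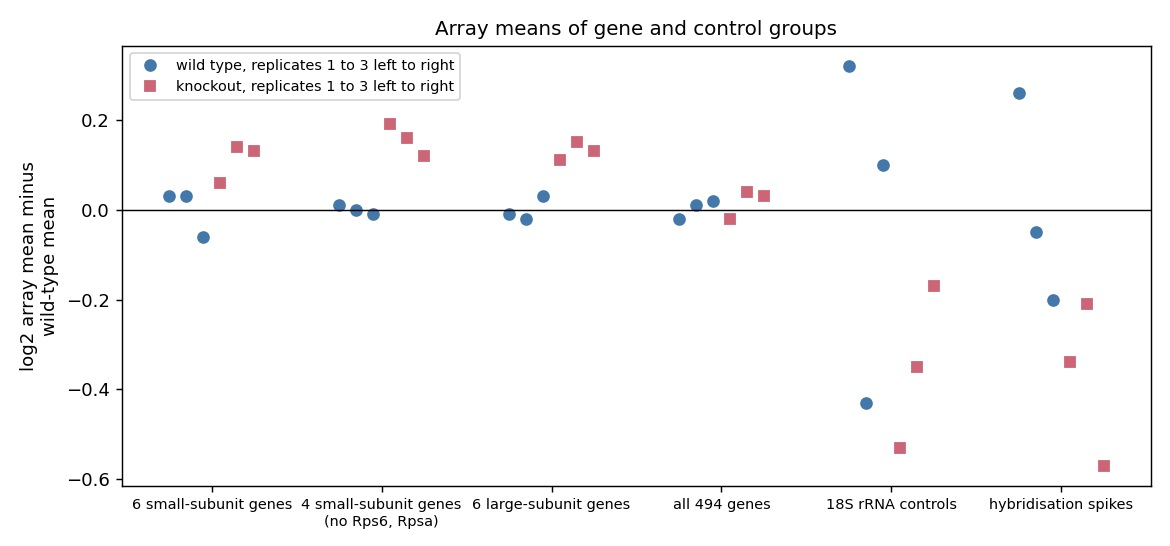
Array means (log2, minus the wild-type mean of the same group) of small-subunit genes, large-subunit genes, all genes and control probe sets, with 1 point per heart. Every knockout heart lies above every wild-type heart for both subunits, while the 18S controls and the hybridisation spikes have lower knockout means and a wider spread.

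The array controls differed in part between the genotypes. The mean of 18 hybridisation spike probe sets was 9.89 ± 0.23 in the wild type and 9.52 ± 0.18 in the knockout (SD, n = 3 each), with no overlap (exact permutation p = 0.1, the smallest that 3 against 3 can give). With this level as a covariate the mean difference of the 6 small-subunit genes was 0.15, that of Rps26 was 0.07 and that of Rpsa -0.03. The 3′ minus 5′ signal of Actb, a sign of RNA quality, was 0.75 ± 0.02 in wild type and 0.63 ± 0.11 in knockout (exact permutation p = 0.1), and its part in the result was not tested. The same measure of Gapdh had a difference of -0.00 (exact permutation p = 1), and 24 poly-A spike probe sets, which follow the labelling, one of 0.06 with overlap (exact permutation p = 0.9). The mean over all 494 genes was 7.72 ± 0.02 and 7.73 ± 0.03, and any pair of arrays correlated at 0.993 to 0.996 over genes, which are no independent replicates.

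Of the other genes of protein synthesis, translation factors and ribosome assembly factors were measured in part. Of 39 listed translation factors 6 were measured, 5 with a higher and 1 with a lower knockout mean, a median difference of 0.06 and 0 with an unadjusted p under 0.05. Eif3i and Eif3h, subunits of the initiation factor that binds the 40S subunit, differed by 0.12 and 0.07 with the groups apart. Eif5, which triggers GTP hydrolysis at the start codon, differed by -0.10 with overlap. Over all genes, a higher mean was found in 52.4%, and the groups were apart upward in 9.51%. Of 41 listed ribosome assembly genes 6 were measured, 5 higher and 1 lower, with a median of 0.11, again beside 52.4% of all genes higher. Npm1, a nucleolar chaperone of ribosome assembly, had the largest difference of them, 0.43 (interval 0.14 to 0.73, adjusted p = 0.347 in limma). Ncl, the nucleolar protein nucleolin, differed by 0.14 with overlap in its brightest probe set, by 0.27 in a second one (1415773_at) and by 0.65 with the groups apart in the dimmest (1415772_at, interval 0.28 to 1.03), so its probe sets differed in size. Pes1, a factor of large-subunit assembly, differed by 0.12 with overlap. Pdpk1, a kinase upstream of the S6 kinases and the 1 measured gene of 14 listed for S6 kinase and mTOR signalling, differed by -0.04 (interval -0.22 to 0.15). None of these genes passed over all genes in limma. The lists are not complete, and measured genes of the same processes outside them were not counted.

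The genes whose pattern over the 6 hearts was closest to the mean of the small-subunit genes were found by the mean absolute distance between profiles, each taken minus its own mean. Among 488 other genes the closest were Pfdn5, a subunit of the prefoldin chaperone, at 0.017, Prps1, an enzyme of nucleotide synthesis, at 0.020, Eif3i at 0.021, Psmc3, a proteasome ATPase, at 0.027 and Hnrnpul2, an RNA-binding protein, at 0.032. The median distance was 0.107, and a gene with no change at all would lie at 0.055. The large-subunit genes took ranks 21 (Rpl35) to 228 (Rplp2), and 4 of the 6 lay farther off than a gene with no change. Of the small-subunit genes themselves, Rps29 lay at 0.050, Rps15 at 0.072, Rps4x at 0.074, Rps26 at 0.086, Rpsa at 0.119 and Rps6 at 0.146. Rps29 alone was thus closer to the mean profile than a gene with no change. That mean profile includes each small-subunit gene itself and the dimmer Rps6 and Rpsa. Distances to a mean without Rps6 and Rpsa were not taken.

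**Figure D4:**
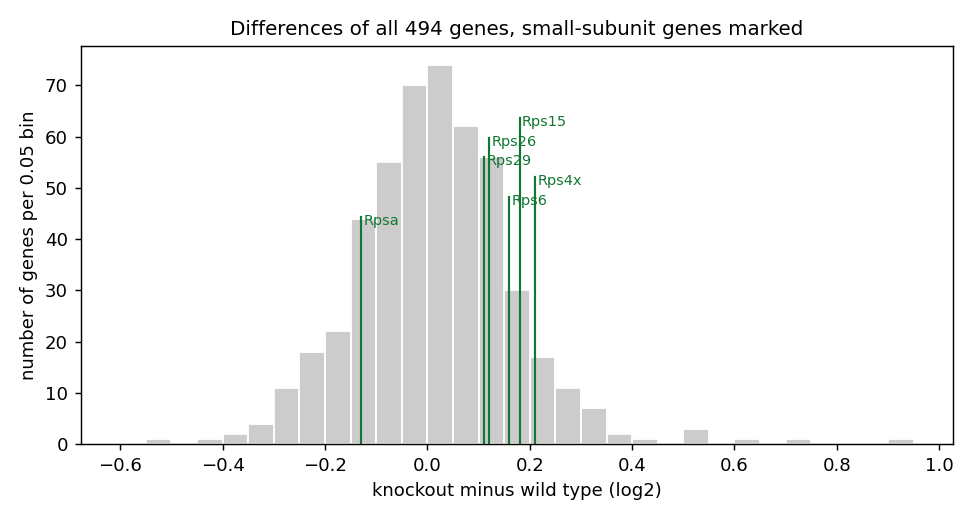
Number of genes (vertical axis) by difference between knockout and wild type (log2, bins of 0.05) for all 494 genes, with the small-subunit genes as green lines whose height carries no value. Rps4x at 0.21, Rps15 at 0.18, Rps6 at 0.16, Rps26 at 0.12 and Rps29 at 0.11 lie right of 0 and Rpsa at -0.13 left of it.

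Markers of the cells a heart can hold were measured in small part. Actc1, the cardiac actin and the 1 measured gene of 10 cardiomyocyte markers, averaged 14.11 ± 0.03 in the wild type and 14.12 ± 0.01 in the knockout (SD, n = 3 each). Its values lay at the top of the deposited range, which ends at 14.15, and whether the probe set could still show a rise was not tested. Bpgm and Car1, 2 of 12 red cell markers, averaged 5.59 to 5.80 in wild-type and 5.73 to 6.05 in knockout hearts. Taken alone, Bpgm differed by 0.31 (interval -0.14 to 0.77) and Car1 by 0.13 (interval -0.13 to 0.39). Tie1, 1 of 8 endothelial markers, lay at 7.60 to 7.73 and 7.48 to 7.74, and Mpo, 1 of 7 neutrophil markers, at 3.45 to 3.54 and 3.49 to 3.74. All 4 overlapped, none had an unadjusted p under 0.05 in limma, and the other 6 marker lists (fibroblast, smooth muscle, macrophage, lymphocyte, skeletal muscle and fat) were not analysed here. In whole hearts, more cells of a type and more mRNA per cell cannot be told apart, and the part of cell make-up in the small-subunit values was not tested.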

How the data were processed

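Total RNA of 6 hearts was amplified, labelled with biotin and hybridised to 1 array each, per the labels' protocols. The authors deposited log2 values (2.56 to 14.15). The submitters' processing notes name RMA, Partek and GCOS. RMA sets all arrays to 1 distribution, so differences are relative to the other genes. Version, genome build and aligner are not given in the sources used here. Values were present for 707 of 45101 rows, 643 of them gene probe sets and 64 controls, and the other rows were not analysed here. The platform table gave 1 symbol to 597 probe sets, several to 26 and none to 20. All 597 matched RefSeq GRCm38.p6 by gene ID. The probe set with the highest mean stood for each of 494 genes.

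The genotype effect was fitted by lmFit and eBayes of limma 3.58.1 (R 4.3.3; two-sided, no covariate), with Benjamini-Hochberg adjustment over all 494 genes or 643 probe sets. The script was tested on simulated data. Replicate numbers are not said to pair hearts. The number of arrays limits the precision. The genes and lists were chosen with earlier results of these data known. Named genes are all small-subunit genes, the 5 closest profiles and up to 3 genes per list with the largest difference. Rplp2 and the measured cell markers are named outside this rule, Rplp2 after its values were seen. Alternatives covered normalization, choice of probe sets, prior variance, weights, covariates and left-out arrays.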

Additional observations from a re-analysis of the deposited data

How the results depend on the processing

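All 6 small-subunit genes kept their direction, and none passed, in every alternative run, with adjusted p of 0.213 to 0.973 in limma. Some of these runs could not reverse a direction. The replicate block, the prior variance that follows the level and the filter on dim probe sets leave a gene's difference as it is. The choice of probe sets changed only the difference of Rps15. Rpsa had no value under the filter on dim probe sets. The mean difference of 0.109 became 0.157 when the median signal over the genes was taken on each array, 0.157 without Rpsa and 0.157 without Rpsa and Rps6. The last 2 settings, the shared Rps6 probe set and the 18S covariate were chosen after seeing the data. It was 0.0658 with centring, and from 0.0800 to 0.133 with 1 array left out in turn. A prior variance that follows the level called 1 gene and 2 probe sets, against 0, none of them of the small subunit. The labels do not say whether hearts with the same replicate number are paired. Deviations of wild-type and knockout hearts with the same number correlated at -0.15, -0.08 and 0.18 across genes. For hearts with different numbers these correlations ran from -0.26 to 0.28. With 3 hearts per genotype, such values cannot settle whether hearts were paired. Each number occurs once per genotype, so a replicate block cannot change a mean difference, which stays at 0.109. With the block limma called 0 genes.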

Other observations

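In the probe set shared by Rps27rt and Rps27 knockout hearts 2 and 3 had exactly equal values, which occurred between arrays in 14 of the 643 probe sets. Of the 5 large-subunit probe sets with several symbols, all 5 had a higher knockout mean, by 0.01 to 0.17, beside 54.3% of the 643 probe sets, and in 3 the groups were apart upward, beside 9.64%.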
